A study of Mus musculus with 2 samples.

Results

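Branched-chain amino acid catabolism was described here through 10 of its genes, Bcat2, Bckdha, Bckdhb, Ivd, Mccc1, Acadsb, Hibch, Hibadh, Aldh6a1 and Pccb, in epididymal white adipose tissue of male mice on standard chow. They were found by gene symbol in the annotation of the array and were represented by 13 of its 22690 probe sets, a probe set being a group of short probes for the same transcript. All 10 were among the 6533 genes measured, that is, with an intensity of at least 32 on at least 1 array. The Ppard knockout pool held RNA of 5 mice, 12 weeks old, lacking the nuclear receptor PPARβ/δ on a mixed Sv129/C57BL/6 background, and the wild-type pool held RNA of 5 mice of 12 to 16 weeks whose label gives the strain as 129S1/SvJae, although the design text calls the controls littermates. With 1 Affymetrix array for each pool, every comparison sets 1 value against 1 value, there is no spread between animals, no test between genotypes was possible, and strain and age cannot be told apart from genotype. Values are intensities on a linear scale, processed by the authors with GCRMA, and a difference is the log2 value of the knockout pool minus that of the wild-type pool.

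Leucine, isoleucine and valine are broken down in mitochondria. A transaminase first removes the amino group, the branched-chain ketoacid dehydrogenase complex then commits the carbon skeleton to oxidation, and separate enzymes for each amino acid finish the work, yielding acetyl-CoA, acetoacetate and, from isoleucine and valine, propionyl-CoA. The pathway is a known feature of mature white adipocytes, where its products feed fatty acid synthesis and the citric acid cycle, and its genes are known to rise when fat cell precursors differentiate.

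All 10 genes were lower in the knockout pool, by 1.35-fold for Aldh6a1 to 2.83-fold for Hibch, with a median log2 difference of -0.89, or 1.85-fold. The value of Hibch rests on a probe set that may match transcripts of other genes, and its second, dim probe set was lower by only 0.31 on the log2 scale, which would make Hibch the gene that differed least. Over all 6533 measured genes 55.5% were lower by any amount, and the median difference was -0.08. Of the 10 genes, Hibch, Bcat2 and Pccb were at least 2-fold lower, against 9.14% of all measured genes, and none was at least 2-fold higher, against 13.7%. At 1.5-fold, 8 of the 10 were lower, against 21.3% of measured genes, and again none was higher, against 20.7%. The 2 genes that did not reach 1.5-fold were Aldh6a1 and Acadsb. The 10 genes were chosen with earlier results of these data known, which limits what these comparisons with all genes can show.

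The arrays give only a partial view of technical error. Among the 2137 measured genes with several probe sets, differences computed from separate probe sets of the same gene scattered with an SD of 0.25 in the median gene and 0.75 at the 90th percentile. All 10 pathway genes differed by more than 0.25, as did 71.0% of all measured genes in either direction, and 7 of the 10 differed by more than 0.75, against 32.8%. This says nothing of the spread between animals, which pooling removed. The spiked control dap, added to the RNA in a fixed amount, was itself lower in the knockout pool. It was at 339 against 549 in the wild-type pool (log2 difference -0.70). Over all its probe sets the difference ran from -1.03 to -0.57. The spiked control cre was at 9812 against 9700, and its probe sets ran from 0.02 to 0.16. The 3' to 5' ratio of actin, which grows with RNA degradation, was 2.48 in the knockout and 2.30 in the wild-type pool. The part of these differences in the results was not tested. The targeted gene Ppard was dim in both pools, at 6.27 in the knockout and 6.58 in the wild-type pool, and so gave no check of the genotype.

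**Figure D1:**
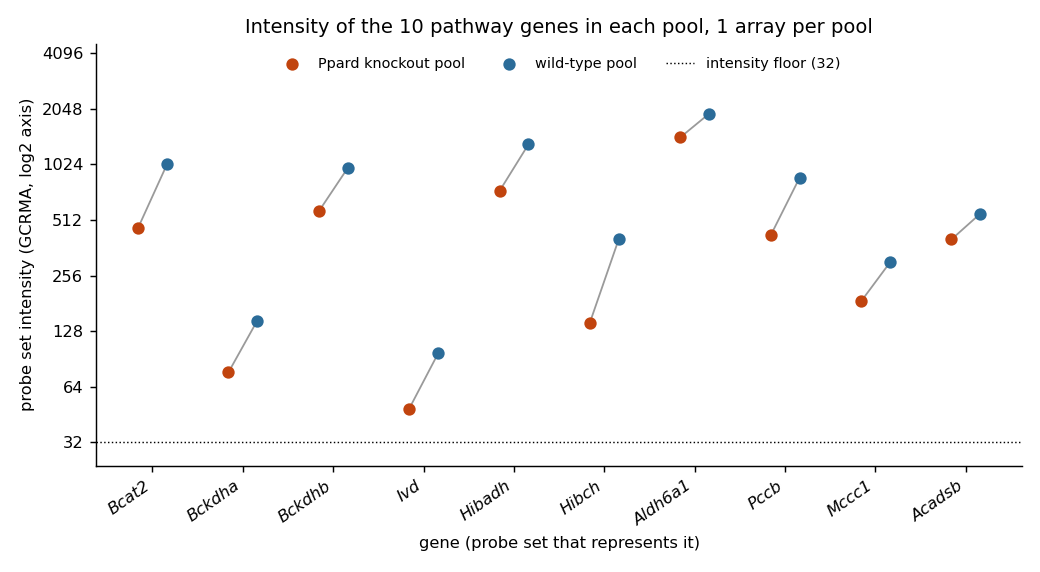
Intensity of the 10 pathway genes (log2 axis) in the knockout pool (left point of each pair) and the wild-type pool (right point), 1 array per pool and therefore without error bars. Every knockout point lies below its wild-type partner, and all points lie above the intensity floor of 32, which is dotted.

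The first enzyme of the pathway, the mitochondrial transaminase Bcat2 (probe set 1425764_a_at), was at 464 in the knockout pool and 1025 in the wild-type pool, a log2 difference of -1.14. Only 6.70% of measured genes had a difference as low. The cytosolic form of the enzyme, Bcat1, which is best known from brain, did not reach an intensity of 32 in either pool. Upstream of the transaminase, the carrier Slc25a44, which brings branched-chain amino acids into mitochondria, was at 36.7 in the knockout and 128 in the wild-type pool (-1.81), but a further probe set of it differed by only -0.41. The plasma membrane transporter went the other way: Slc7a5, which carries large neutral amino acids, was at 2086 in the knockout and 1132 in the wild-type pool (0.88), and its partner chain Slc3a2 was at 2005 and 1648 (0.28).

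The branched-chain ketoacid dehydrogenase complex catalyses the irreversible step. Its decarboxylase is built from the products of Bckdha and Bckdhb. Bckdha (1416647_at) was at 76.6 in the knockout and 146 in the wild-type pool (-0.93), and Bckdhb (1427153_at) was at 571 in the knockout and 979 in the wild-type pool (-0.78). The 2 subunits of the decarboxylase thus differed by similar amounts, 1.91-fold and 1.72-fold. The remaining subunits were lower as well. Dbt, the core acyltransferase of the complex, was at 87.8 in the knockout and 266 in the wild-type pool, a 3.03-fold difference. Dld, the dehydrogenase that this complex shares with the pyruvate and oxoglutarate complexes, was at 515 in the knockout and 902 in the wild-type pool (-0.81). Bckdk, the kinase that switches the complex off, was at 47.2 in the knockout and 64.1 in the wild-type pool (-0.44), so the transcripts of the complex and of its inhibitor were both lower.

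Leucine carbon passes through isovaleryl-CoA dehydrogenase, encoded by Ivd, and methylcrotonyl-CoA carboxylase, a biotin enzyme of the Mccc1 and Mccc2 chains. Ivd was the dimmest of the 10 genes, and its 2 probe sets differed alike. The first (1418238_at) was at 48.7 in the knockout and 97.0 in the wild-type pool, the second (1449001_at) at 35.2 and 72.7, differences of -0.99 and -1.05. Mccc1 (1417227_at), the biotin-carrying chain of the carboxylase, was at 186 in the knockout and 302 in the wild-type pool (-0.70). Mccc2, the other chain, was close to the floor, at 32.5 in the knockout and 42.3 in the wild-type pool (-0.38). Auh, the hydratase that follows, was at 42.0 in the knockout and 66.0 in the wild-type pool (-0.65).

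The valine branch held both the largest and the smallest difference of the 10 genes. Hibch, the hydrolase that frees 3-hydroxyisobutyrate from its CoA ester, was at 143 in the knockout and 404 in the wild-type pool on the probe set that represents it (1451512_s_at), a difference of -1.50, and 2.66% of measured genes were as low. Its second probe set (1451511_at) was near the floor, at 26.2 in the knockout and 32.5 in the wild-type pool, and differed by -0.31. The 2 probe sets therefore point the same way and disagree on the size. The suffix _s_at marks probes that can match transcripts of more than 1 gene. Hibadh, which oxidises 3-hydroxyisobutyrate, a metabolite that leaves cells and is found in blood, was at 736 in the knockout and 1316 in the wild-type pool (1423780_at, -0.84). Its second probe set (1435967_s_at) was at 602 in the knockout and 907 in the wild-type pool (-0.59). Aldh6a1 (1448104_at), the last enzyme of the branch, which makes propionyl-CoA, was the brightest of the 10 genes and differed least, at 1435 in the knockout and 1931 in the wild-type pool (-0.43). At the head of the branch, the isobutyryl-CoA dehydrogenase Acad8 was nearly level, at 119 in the knockout and 118 in the wild-type pool (0.02), and its second probe set was higher by 0.46 in the knockout pool.

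In the isoleucine branch, Acadsb (1455446_x_at), the short/branched-chain acyl-CoA dehydrogenase, was at 402 in the knockout and 555 in the wild-type pool (-0.46). Its only probe set carries the suffix _x_at, which marks probes prone to cross-hybridisation. The next steps are shared with other pathways. Hsd17b10, a dehydrogenase of 2-methyl-3-hydroxybutyryl-CoA, was at 377 in the knockout and 640 in the wild-type pool (-0.77). The hydratase Echs1 differed by -0.64 and the thiolase Acat1 by -0.51. Hadha, Hadhb and Acaa2, which also act on straight-chain fatty acids, were listed with this branch. Hadha was at 275 in the knockout and 270 in the wild-type pool (0.03), and Hadhb and Acaa2 differed by -0.17 and -0.15. The acyl-CoA dehydrogenases of straight-chain fatty acids were read after the data were seen. Acadl at -0.95, Acadm at -0.96, Acadvl at -0.98 and Acads at -0.81 were close to the median of the pathway genes. Acad11 at -0.61 and Acad9 at -0.37 differed less.

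Propionyl-CoA, the shared product of isoleucine and valine, is carboxylated by the enzyme of the Pcca and Pccb chains, both of which were about 2-fold lower. Pccb (1450969_at) was at 423 in the knockout and 868 in the wild-type pool (-1.04), and Pcca was at 47.1 in the knockout and 94.9 in the wild-type pool (-1.01). Mcee, the epimerase that follows, differed by -0.71. Mmut, the cobalamin-dependent mutase that delivers succinyl-CoA to the citric acid cycle, was at 57.5 in the knockout and 198 in the wild-type pool, a 3.45-fold difference, and its second measured probe set differed by -1.39. Mmadhc, which handles cobalamin inside the cell, was in contrast at 1078 in the knockout and 591 in the wild-type pool (0.87).

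**Figure D2:**
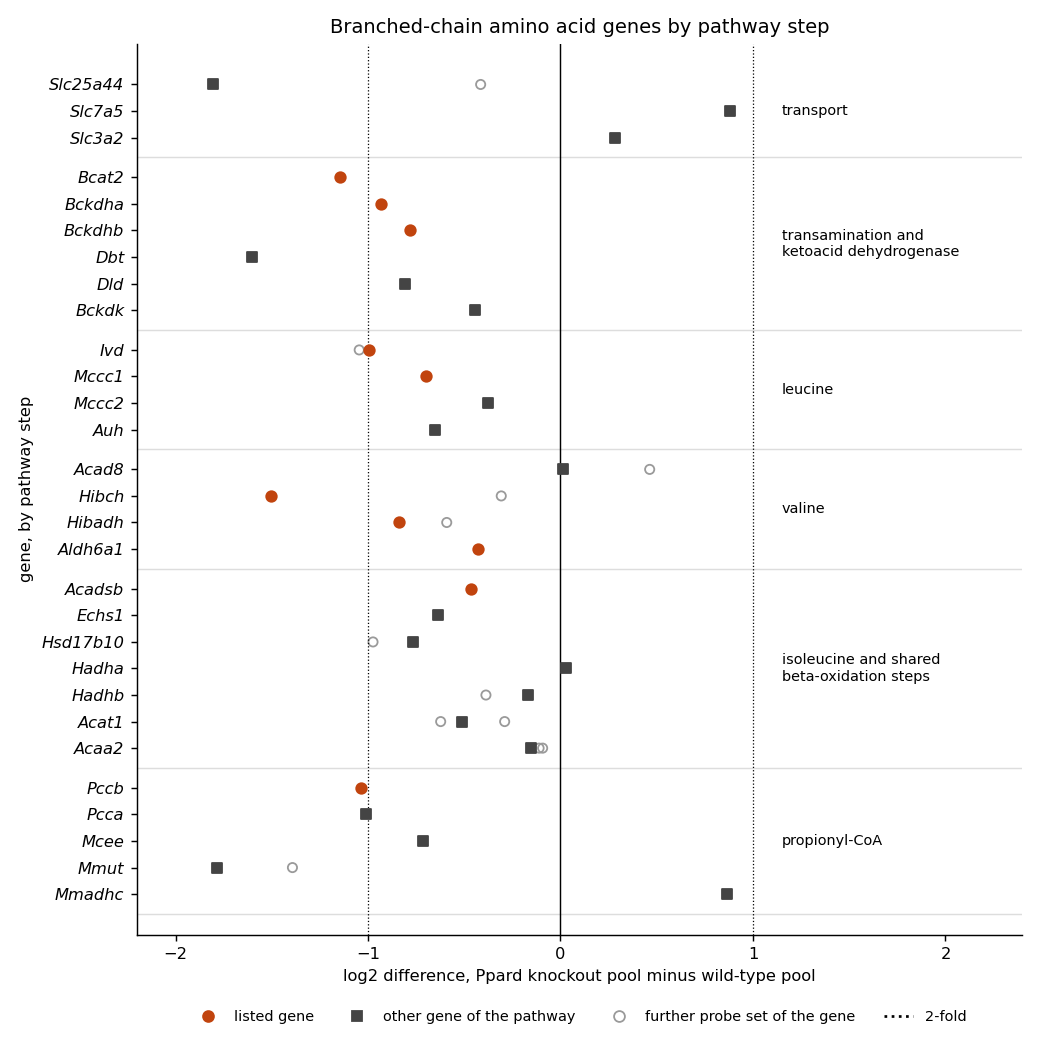
Log2 difference (knockout pool minus wild-type pool) of the 10 listed genes (filled circles) and 19 other measured genes of the pathway (squares), grouped by step, with further measured probe sets of the same gene as open circles. The 10 listed genes lie between -1.50 and -0.43, and the other genes between -1.81 and 0.88.

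Taking the other genes of the pathway as a whole, 26 were listed, of which 3 had no probe set used here and 4, Bcat1, Slc6a15, Mmaa and Mmab, were below the floor in both pools. Of the 19 measured, 14 were lower and 5 higher in the knockout pool, against 55.5% of all measured genes lower. The 5 higher genes were Slc7a5, Slc3a2, Mmadhc, Acad8 and Hadha. Slc25a44, Mmut, Dbt and Pcca were at least 2-fold lower, against 9.14% of all measured genes. None was at least 2-fold higher, against 13.7%. The median difference over the 19 was -0.51, against -0.89 for the 10 genes. The difference between these medians was not tested, and the lists and members were chosen with earlier results of these data known.

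**Figure D3:**
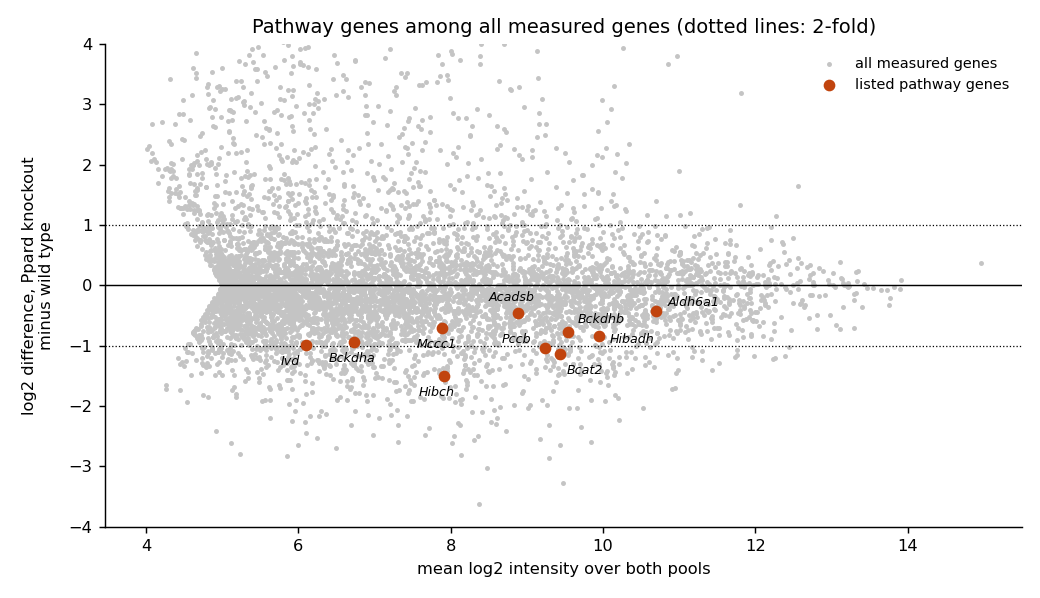
Log2 difference (knockout minus wild type) against mean log2 intensity for all 6533 measured genes (grey) and the 10 pathway genes (coloured), with 2-fold marked by dotted lines. All 10 lie below 0, from Ivd among the dimmer genes to Aldh6a1 among the brighter ones. A further 180 genes lie beyond the plotted range of 4 on either side.

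The citric acid cycle and the pyruvate dehydrogenase complex, which also work in mitochondria, were set beside the pathway. The 16 measured genes listed with the cycle include Pcx, pyruvate carboxylase, which supplies it (-0.75). Of the 16, 13 were lower, against 55.5% of all measured genes, with a median difference of -0.49. Idh3a, a subunit of isocitrate dehydrogenase (-1.11), and Ogdh, the oxoglutarate dehydrogenase (-1.02), were at least 2-fold lower, against 9.14% of all measured genes. Sucla2, a succinyl-CoA ligase subunit, was at 3656 in the knockout and 1900 in the wild-type pool (0.94), and the flavoprotein subunit Sdha differed by 0.22 on its representative probe set but by -0.74 on another. The 8 measured genes of pyruvate dehydrogenase and its kinases were split, 4 lower and 4 higher, with a median of 0.01. The lowest were Pdk4 (-0.94), a kinase induced by fasting, and Pdha1 (-0.69), the somatic catalytic subunit. The highest were Pdk3 (1.23) and Pdha2, the testis form of the catalytic subunit, which was at 424 in the knockout pool. Its wild-type value, 7.90, lay under the floor, and against 32 the knockout value was at least 13.2-fold higher.

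Genes that mark adipocytes had a median difference close to that of the pathway genes. They ranged more widely, from -2.87 to 0.96. Of 12 measured adipocyte markers 11 were lower in the knockout pool, against 55.5% of all measured genes, with a median of -0.93. At least 2-fold lower were 6, against 9.14%. The exception, Aqp7, differed by 0.96 on its representative probe set but by -2.01 on another, so the median depends on the probe set chosen. Fabp4 had a further probe set at -1.88 (representative -0.20), Cd36 at -1.70 (-0.71) and Lpl at -0.98 (-0.36). Those of Slc2a4 lay between -1.53 and -1.50. The summed intensity of the 12 markers was 47128 in the knockout and 71233 in the wild-type pool, and none was below the floor in either. Leptin (Lep) was lowest, at 233 in the knockout and 1698 in the wild-type pool, while Adipoq, the adiponectin gene, was at 8030 and 10259 (-0.35). The summed intensity of the 10 pathway genes was 4484 in the knockout and 7623 in the wild-type pool. In tissue RNA of this kind, fewer adipocytes and less of each transcript per adipocyte cannot be told apart.

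The pathway genes were also set against the adipocyte median. With -0.93 subtracted from every difference, a comparison added after the data were seen, 5 of the 10 were lower and 5 higher, and their median was 0.046. The adipocyte median depends on the probe sets chosen, such as Aqp7 at 0.96 or -2.01, and this split with it. The split was not computed for other choices. With -0.93 subtracted, 10.6% of all measured genes were lower and their median was 0.85. Hibch (-0.57) and Bcat2 (-0.21) were lowest on this scale, and Aldh6a1 (0.50) and Acadsb (0.47) highest. None of the 10 was then 2-fold different in either direction, against 1.01% of all measured genes lower and 40.1% higher.

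Markers of other cells moved too. All 10 measured macrophage markers were lower, with a median of -1.01, or -0.86 once 2 dim knockout values were raised to an intensity of 32. Of 8 measured endothelial markers 7 were lower, with a median of -1.07. Over all measured genes 55.5% were lower. Summed intensities were 2762 in the knockout against 4671 in the wild-type pool for the macrophage markers, and 607 against 1181 for the endothelial markers. Of 10 measured epididymis markers 9 were higher, with a median of 0.32 and summed intensities of 64397 in the knockout and 54928 in the wild-type pool. Each of the 17 measured germ cell markers was higher in the knockout pool by 2-fold or more, against 13.7% of all measured genes. The median of these markers was 5.10, or 4.78 once the 3 dim wild-type values were raised to an intensity of 32. Their summed intensity was 70240 in the knockout and 3647 in the wild-type pool, so transcripts of sperm precursors were present in both pools and far more abundant in the knockout pool. The part of these transcripts in the lower values of the pathway genes was not tested.

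**Figure D4:**
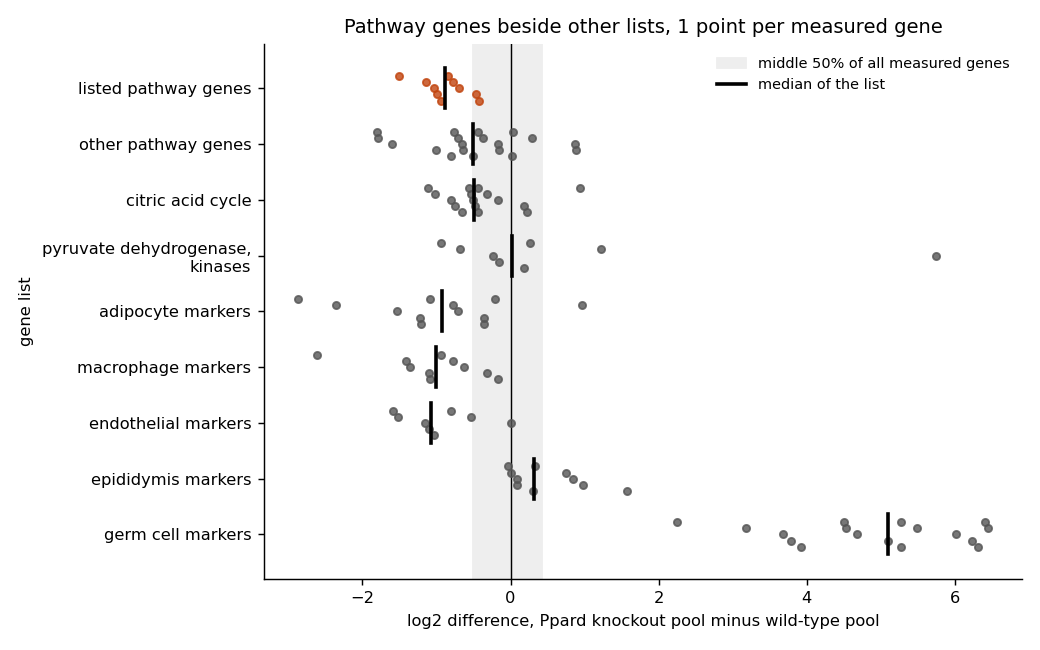
Log2 difference (knockout pool minus wild-type pool) of each measured gene of 9 lists, with the median of each list as a black bar and the middle 50% of all measured genes shaded (-0.50 to 0.42). The listed pathway genes, median -0.89, lie with the adipocyte, macrophage and endothelial markers (medians -0.93, -1.01 and -1.07), and the germ cell markers lie far to the right (median 5.10).

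As the 10 genes were lower together, the sequence around their starts was searched for the letters that PPARs are known to bind. PPARs bind with their partner RXR to a direct repeat of a half-site, usually in imperfect copies. RefSeq's table of promoter windows (GRCm38.p6), 250 bases before to 50 bases after each start, held 13 windows for the 10 genes, on 7 chromosomes and none on chromosome 17, where Ppard lies. On both strands, the exact repeat AGGTCANAGGTCA was in none of the 13 windows and in 0.0396% of all 32851 windows. The half-site AGGTCA alone, which is also part of the repeat, was in 3 of the 13 windows and in 16.3% of all. For comparison, the GC box GGGCGG was in 5 of the 13 and 35.7% of all, and the letters CCAAT in 7 of the 13 and 37.4% of all. Only these exact letters were searched, and a match is a description of the window and not a binding site.

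The 3 windows that hold the half-site are shown 5′ to 3′ in the direction of the gene, with AGGTCA in capitals, being the only windows of these genes that do. In Bckdhb (chr9:83924887-83925186, plus strand) it begins 119 bases before the start, in the Aldh6a1 window of its further start (chr12:84448268-84448567, minus strand) 94 bases before, and in Hibadh (chr6:52640251-52640550, minus strand) 19 bases after. Their genes differed by -0.78, -0.43 and -0.84, and the 7 genes without it by -1.50 to -0.46.
Bckdhb: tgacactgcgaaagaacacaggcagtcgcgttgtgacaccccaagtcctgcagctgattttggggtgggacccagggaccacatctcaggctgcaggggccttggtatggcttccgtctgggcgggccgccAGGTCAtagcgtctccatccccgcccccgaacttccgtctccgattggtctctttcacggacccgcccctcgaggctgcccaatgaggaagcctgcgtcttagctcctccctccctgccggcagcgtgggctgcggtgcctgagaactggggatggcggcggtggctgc
Aldh6a1: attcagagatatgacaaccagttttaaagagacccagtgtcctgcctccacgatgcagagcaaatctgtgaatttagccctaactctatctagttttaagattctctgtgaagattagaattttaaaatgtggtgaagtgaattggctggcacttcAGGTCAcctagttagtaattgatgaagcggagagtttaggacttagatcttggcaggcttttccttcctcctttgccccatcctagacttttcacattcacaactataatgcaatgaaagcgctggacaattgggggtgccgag
Hibadh: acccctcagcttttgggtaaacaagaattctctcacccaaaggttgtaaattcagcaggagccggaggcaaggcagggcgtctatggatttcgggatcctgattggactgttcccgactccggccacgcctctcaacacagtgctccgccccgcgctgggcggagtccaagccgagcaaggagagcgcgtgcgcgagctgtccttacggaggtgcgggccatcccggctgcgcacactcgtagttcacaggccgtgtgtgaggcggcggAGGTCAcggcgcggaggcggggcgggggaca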

How the data were processed

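Per the design text and labels, total RNA was extracted with TRIzol, pooled over 5 animals per genotype, labelled with biotin and hybridised to 1 array per pool. The authors made the deposited intensities, 1 per probe set, with GCRMA (version 2.20 per the submitters' processing notes). That method subtracts a background modelled from probe sequence, forces equal intensity distributions on the arrays and summarises probes, which can shift all genes when many differ and can inflate folds of dim genes. The deposited intensities run from 1.91 to 36322, a linear scale, so log2 was taken here; which arrays were normalised jointly was not given in the sources used here. Of 22690 probe sets, 20393 named 1 gene (20364 matched by gene ID to GRCm38.p6 records), 691 several and 1606 none; only those naming 1 gene were used. Detection calls were not used; a probe set was measured when its log2 value was at least 5 on at least 1 array, and each gene was represented by its brightest measured probe set. Depth does not apply to arrays; their number limits the precision. Genes named are the 10 listed, all measured genes of the other pathway lists, up to 2 at each end of the citric acid cycle and pyruvate dehydrogenase lists, and Ppard. Lep, Adipoq, Aqp7, Fabp4, Cd36, Lpl and Slc2a4 were chosen after values were seen. So were the acyl-CoA dehydrogenases of straight-chain fatty acids and all genes of the closing observations. Genes below the floor and Pcx are named to account for their lists. The lists and members were chosen with earlier results of these data known. Scripts (Python 3.11.15, pandas 2.3.3) were tested on simulated data.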

Additional observations from a re-analysis of the deposited data

How the results depend on the processing

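All 10 genes were lower under each other setting tried that gave a value (a log2 floor of 4, 6 or none, the mean over probe sets, no probe sets of shared sequence, differences centred or with the intensity trend removed by lowess, and log2 of the intensity plus 32), and without shared sequence the 8 genes left were lower. Over all genes, the share lower ran from 47.9% with the trend removed to 58.3% with no floor. Of 78 single-gene values of the 10 genes under these settings, 75 moved by less than 0.25. Of the other 3, Hibch was at -0.91 as a mean over its probe sets and -0.31 without shared sequence, and Ivd at -0.68 with 32 added. Many of the 75 could hardly move, so their number is no measure of robustness. All 10 genes reached every floor tried, 7 had 1 probe set, and centring shifted every gene by the same 0.08. The median over the 10, or the 8 left without shared sequence, ranged from -0.89 to -0.71. That over the other pathway genes ranged from -0.57 to -0.34, but over 16 to 23 genes depending on the setting. Without shared sequence, probe sets ending in _s_at, _x_at or _a_at were dropped, although _a_at marks sequence shared by transcripts of the same gene. The only probe sets of Bcat2 (_a_at) and Acadsb (_x_at) ended so, and these genes gave no value there, whatever their difference. The count of genes at least 2-fold lower was 3 and depended on the setting. It was 8 at 1.5-fold, against 21.3% of all genes. With the trend removed it was 1 (Hibch, 7.64% of all genes), and without shared sequence 1 of 8 (Pccb, 9.85%). Both were near the share of all genes. It was 2 when centred (7.70%) or with 32 added (5.27%), namely Bcat2 and Hibch. Against the adipocyte median, added after the data were seen, it was 0 (1.01% of all genes), 5 genes were lower (10.6% of all genes), and the medians were 0.046 for the 10 genes and 0.42 for the other 19, against 0.85 for all genes. These values depend on the probe sets chosen for the adipocyte markers. No paired analysis was possible because each genotype has 1 array. With 32 added, 344 genes of all were at least 2-fold lower and 649 higher, against 597 and 893. The causes were not tested.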

Other observations

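Further gene groups around the pathway were read after the data had been seen. The nitrogen that the transaminase removes is passed on as glutamate, alanine and glutamine. The alanine transaminases were lower in the knockout pool: Gpt was at 40.4 in the knockout and 114 in the wild-type pool (log2 difference -1.49), and Gpt2 at 699 in the knockout and 1882 in the wild-type pool (-1.43), with its 3 probe sets between -1.83 and -1.24. Glud1, glutamate dehydrogenase, was at 707 in the knockout and 1507 in the wild-type pool (-1.09). Glutamine synthetase (Glul), in contrast, was at 4046 in the knockout and 3605 in the wild-type pool (0.17), the mitochondrial aspartate transaminase Got2 differed by 0.20 and the asparagine synthetase Asns by 0.10. Of the 8 genes of nitrogen handling measured, 5 were lower and 3 higher, against 55.5% of all measured genes lower.

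The acyl-CoA dehydrogenases Ivd and Acadsb hand their electrons to the electron transfer flavoprotein. Its subunit genes Etfa and Etfb differed by -0.86 and -0.83 and its oxidoreductase Etfdh by -0.67, close to the pathway genes, whereas Lias, which makes the lipoyl group of the ketoacid dehydrogenase, differed by -0.19. All 7 measured genes for the breakdown of other amino acids were lower, against 55.5% of all measured genes, with a median of -0.25. None was lower by 2-fold, against 9.14%. These 7 genes ran from Prodh, proline dehydrogenase (-0.82), to Gldc of the glycine cleavage system (-0.06). In ketone body use, the somatic transferase Oxct1 was at 1431 in the knockout and 2018 in the wild-type pool (-0.50), and its testis counterpart Oxct2a was at 599 in the knockout pool. Its wild-type value, 20.8, lay under the floor, and against 32 the knockout value was at least 18.7-fold higher. Germ cell markers were higher in the same pool by a median of 5.10, and their part in these values was not tested.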
